A study of Homo sapiens with 4 samples.

Results

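The cadherins and protocadherins are cell surface adhesion proteins, and their transcripts were compared between U87 glioma cells with and without knockdown of PTPRN, a receptor-type tyrosine phosphatase family member found on secretory vesicles. Members were chosen by gene symbol alone: CDH followed by a number, any symbol starting with PCDH, and DSC or DSG followed by a number. The rule found 96 of the 19314 genes listed, namely 5 type I and 13 type II classical cadherins, 5 other cadherins, 7 desmosomal cadherins, 13 non-clustered protocadherins, and 15 alpha, 16 beta and 22 gamma members of the protocadherin clusters. A value above 0 in any library was given for 83 of them, and 13 had no value (CDH8, CDH9, CDH10, DSG1, PCDH8, PCDH11X, PCDH19, PCDHA3, PCDHA8, PCDHA11, PCDHA12, PCDHB1 and PCDHGB5). In the table's own Gene Ontology column, all 96 carried the terms for homophilic cell adhesion and calcium ion binding, whereas 6 of 96 were placed in the KEGG pathway of cell adhesion molecules.

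RNA was sequenced in 4 libraries, 2 of PTPRN knockdown cells (titles with the code PTP2, short hairpin RNA) and 2 of SCR cells (scrambled hairpin). All 4 came from the same line, U87, an established human malignant glioma line, so that each group stood for 1 line and the knockdown for 1 hairpin code. No label says that the libraries of a group came from separate cultures, and p-values then measure only the spread between these libraries, which may be technical. The growth protocol recorded with the libraries names hCMEC/D3, a brain endothelial line, and gives a DMEM/F12 medium with B27, insulin and growth factors. The study's methods instead describe U87 culture in DMEM with serum, and name DMEM/F12 with B27 for the limiting dilution assay. These accounts of the medium differ.

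Expression was given as FPKM, the fragments of a gene divided by its length and by the library's mapped fragments, so levels are comparable between genes per length. Values were tested as log2(FPKM + 1) with limma across the 16595 genes with a value, with Benjamini-Hochberg adjustment of the p-values over all of them. A gene is said below to have risen or fallen with knockdown when its adjusted p was at most 0.05. It is called differential when the fold change on this scale was at least 2 and the adjusted p at most 0.001, the thresholds of the study. The pseudocount of 1 makes fold changes of weakly expressed genes appear smaller. PTPRN itself was 12.09 and 11.68 FPKM in the knockdown libraries and 84.84 and 85.02 in the SCR libraries, a log2 fold change of -2.74 (SE 0.033, limma adjusted p = 0.000148). From the smallest steps of the FPKM values, 18300000 and 18400000 reads were estimated for the knockdown libraries and 19900000 and 18400000 for the SCR libraries. Of 10 endothelial markers, 2 (PECAM1 and TEK) reached an FPKM of 1 in any library, and CLDN5 was at 0 in 3 of the 4 libraries. The 10 summed to 4.03 to 4.57 in knockdown and 4.72 to 4.77 in SCR. Single markers went both ways, as 3 (ERG, KDR and TEK) rose, 2 (PECAM1 and VWF) fell and 5 did not pass. All 7 glioma line markers reached 1, of which 2 (VIM and CD44) rose and 5 fell, with a median log2 fold change of -1.37. Their sums were 5378.13 to 5579.79 in knockdown and 3560.68 to 3636.62 in SCR, most of it VIM.

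Cadherins bind through extracellular repeats that need calcium, usually to the same cadherin on the neighbouring cell. Classical cadherins hold the actin cytoskeleton through catenins, and desmosomal cadherins hold intermediate filaments through plakoglobin, plakophilins and desmoplakin. Protocadherins lack the catenin-binding tail. The clustered protocadherins lie in tandem on chromosome 5, where each variable exon has a promoter of its own, and neurons choose among these promoters so that cells of one kind carry different combinations. The variable exons of the alpha and gamma clusters are spliced to constant exons shared within the cluster, and beta genes are single exons. Gliomas usually have high N-cadherin and little E-cadherin, and the balance of these proteins is a common readout of epithelial mesenchymal transition.

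Promoters of clustered protocadherins carry a short conserved element around the letters CGCT, a known site of CTCF binding. RefSeq promoters (GRCh38.p14, 250 bases before to 50 after each gene's start) were found for 76 of the 96 members. The pattern GNGNCGCTG, in which N is any base, was written after reading these promoters and was searched on both strands. It occurred in 18 of 20 gamma promoters (90.0%), 12 of 14 beta promoters (85.7%) and 0 of 13 alpha promoters, against 12.2% of all 27305 promoters of this length. The shorter CGCT, which GNGNCGCTG contains, was in 12 of 13 alpha, 14 of 14 beta and 20 of 20 gamma promoters, and in 71.9% of all promoters. Whether the alpha promoters hold a form of the element that the longer pattern misses was not tested. The 8 windows that follow are shown because their genes rose, fell or did not pass the test although they share the element, which is in capitals. PCDHGB2 and PCDHB16 rose with knockdown, PCDHGA9, PCDHGA10, PCDHGC3 and PCDHB7 fell, and PCDHGB1 and PCDHB9 did not pass the test.
PCDHGB2: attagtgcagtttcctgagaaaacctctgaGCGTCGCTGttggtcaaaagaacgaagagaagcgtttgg
PCDHGA9: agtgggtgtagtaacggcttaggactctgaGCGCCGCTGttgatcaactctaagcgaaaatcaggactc
PCDHGA10: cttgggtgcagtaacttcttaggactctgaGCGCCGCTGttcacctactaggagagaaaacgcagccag
PCDHGC3: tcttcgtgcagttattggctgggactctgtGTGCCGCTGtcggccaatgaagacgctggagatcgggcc
PCDHGB1: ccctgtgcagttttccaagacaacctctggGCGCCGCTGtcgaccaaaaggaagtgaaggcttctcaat
PCDHB16: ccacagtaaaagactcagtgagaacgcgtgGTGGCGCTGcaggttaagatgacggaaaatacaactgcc
PCDHB7: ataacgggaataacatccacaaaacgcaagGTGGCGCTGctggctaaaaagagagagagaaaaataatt
PCDHB9: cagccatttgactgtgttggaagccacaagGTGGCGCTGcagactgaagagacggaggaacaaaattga

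These windows lie on the plus strand of chromosome 5 (GRCh38.p14). The gamma windows are at chr5:141359903-141359971 for PCDHGB2, chr5:141402696-141402764 for PCDHGA9, chr5:141412913-141412981 for PCDHGA10, chr5:141475862-141475930 for PCDHGC3 and chr5:141350007-141350075 for PCDHGB1. Those of the beta genes are at chr5:141182292-141182360 for PCDHB16, chr5:141172548-141172616 for PCDHB7 and chr5:141187056-141187124 for PCDHB9. Promoter starts are those of RefSeq, and for PCDHB16 the window lies inside the gene as the expression table lists it, which starts further upstream. Of the 36 beta and gamma members with a value, 29 held the element, and of these 3 rose, 9 fell and 17 did not pass, where 30.8% of all genes tested rose and 27.1% fell. Another 3 (PCDHB14, PCDHGB3 and PCDHGB7) held no match, of which 2 fell and 1 did not pass, and 4 (PCDHB6, PCDHB11, PCDHGA12 and PCDHGC5) were without a promoter in the table, of which 1 fell and 3 did not pass.

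Summed over all 96 members, the FPKM was 192.2 and 193.37 in the knockdown libraries and 265.79 and 262.94 in the SCR libraries, 0.729 times the SCR mean. These sums were not tested, since an exact permutation test of 2 libraries against 2 cannot go below a two-sided p of 0.333. In bulk RNA, fewer cells expressing a gene and less RNA per cell cannot be told apart. CDH13 alone took 54.5% and 54.9% of the sum in knockdown and 41.4% and 41.1% in SCR. Without CDH13, the sum was 87.5 and 87.17 in knockdown and 155.68 and 154.9 in SCR.

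Subfamilies differed in how far their sums lay apart. Type II cadherins summed to 4.28 and 4.56 FPKM in knockdown and 9.56 and 10.46 in SCR, 0.442 times the SCR mean. The gamma cluster summed to 45.01 and 43.17 in knockdown and 87.75 and 87.33 in SCR (0.504 times). Desmosomal cadherins summed to 7.96 and 7.64 against 15.03 and 15.29 (0.515 times). Each of these sums rested mainly on 1 gene, which was CDH24 with 80.4 to 83.1% of type II, PCDHGC3 with 80.6 to 86.2% of gamma and DSG2 with 93.5 to 97.2% of the desmosomal sum. The sums of the non-clustered protocadherins (0.590 times the SCR mean), the beta cluster (0.758) and type I cadherins (0.779) were also lower in both knockdown libraries, and that of the other cadherins, which is nearly all CDH13, was 0.962 times. The alpha cluster was the only subfamily with higher sums in knockdown, at 0.44 and 0.52 against 0.20 and 0.30 FPKM in all.

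**Figure D1:**
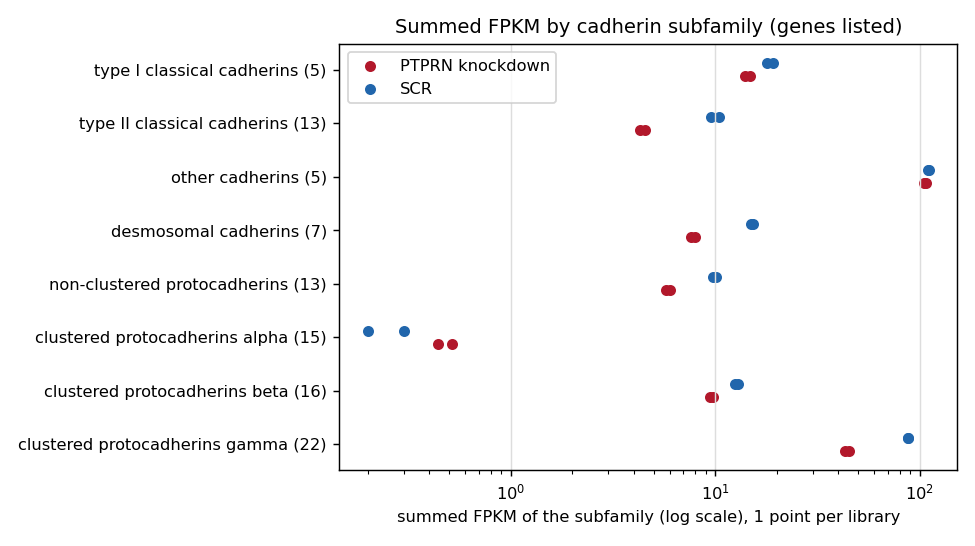
Summed FPKM of each cadherin subfamily (x axis, log scale) in each of the 4 libraries, 1 point per library, with the number of genes listed in parentheses. The knockdown points lie below the SCR points for 7 of the 8 subfamilies and above them for the alpha cluster, whose sums stay under 1 FPKM.

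Across the whole family, 6 of the 83 members with a value rose, 21 fell and 56 did not pass (limma, adjusted p of at most 0.05). Among all genes tested, 30.8% rose and 27.1% fell by this rule, so the share of members that fell was near that of all genes and the share that rose was smaller. The median log2 fold change of the 83 members was -0.01, beside 0.01 over all genes tested. The groups did not overlap for 17 members that were higher and 27 that were lower in knockdown. Among the 16595 genes tested, 6596 were higher and 5945 lower without overlap, so a lack of overlap, given below for single genes, was common. Differential were 1 member that rose (PCDHGB2) and 3 that fell (PCDH18, CDH24 and PCDHGC3), where 2.63% of all genes tested rose and 4.06% fell. With a pseudocount of 0.1, with the replicate number as a block or with any 1 library left out, 0 members and 0 of all genes tested were differential, and the 4 members named still passed 0.05 in each of these fits. Among members that averaged 1 FPKM or more over all 4 libraries, 2 of 16 rose and 11 fell. In that range 41.1% of the 11272 genes rose and 33.5% fell, and the median log2 fold change was -0.49 for the members and 0.06 for all genes. PCDH18, PCDHGA9 and PCDHGA10 reached that mean only through their SCR values, and PCDHGB2 only through its knockdown values. The counts and the median of these members are thus partly set by the choice of range. The other 67 of the 83 lay under a mean of 1 FPKM, and of these 4 rose (6.0%) and 10 fell (14.9%). Most members were thus low, whereas 11272 of the 16595 genes tested averaged 1 FPKM or more. The shares of the 83 members and of all genes tested therefore compare unlike levels, and all genes under that mean were not counted apart.

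**Figure D2:**
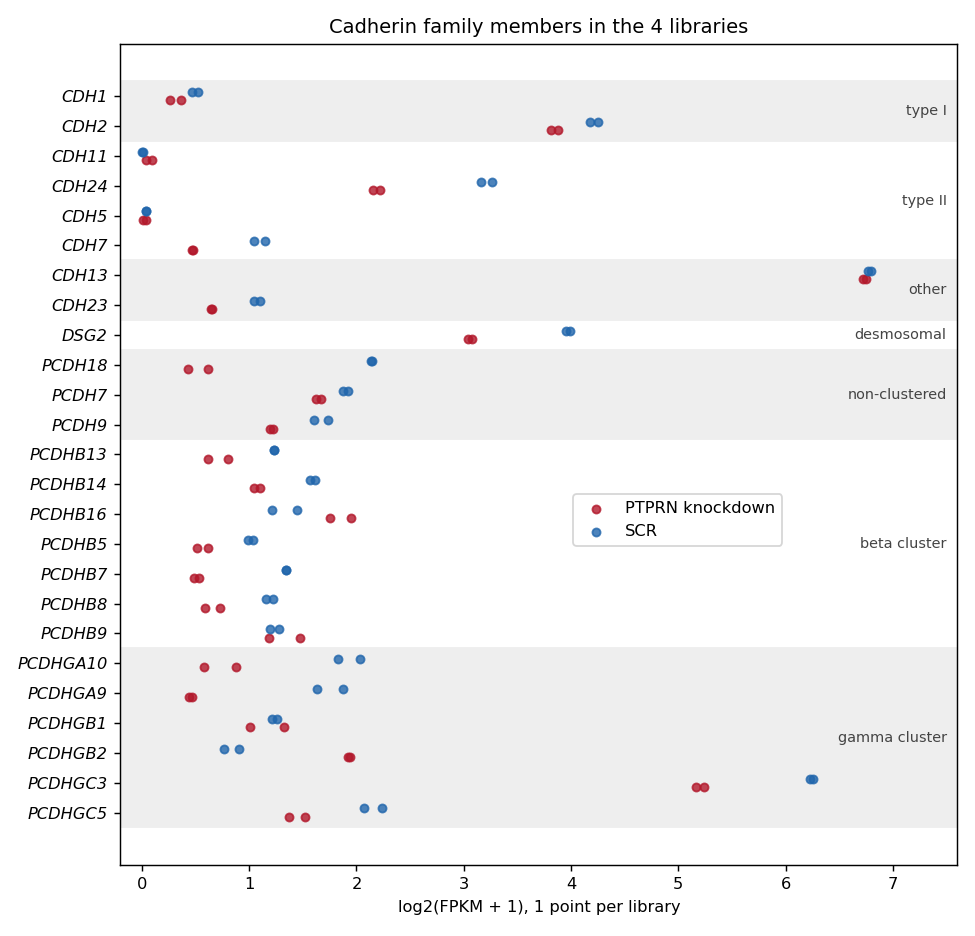
Level of the 25 members described by name, as log2(FPKM + 1) on the x axis, 1 point per library, grouped by subfamily in shaded bands. CDH13 and PCDHGC3 were the most abundant, and for DSG2, CDH24, PCDH18 and PCDHGC3 both knockdown points lie well below both SCR points.

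**Figure D3:**
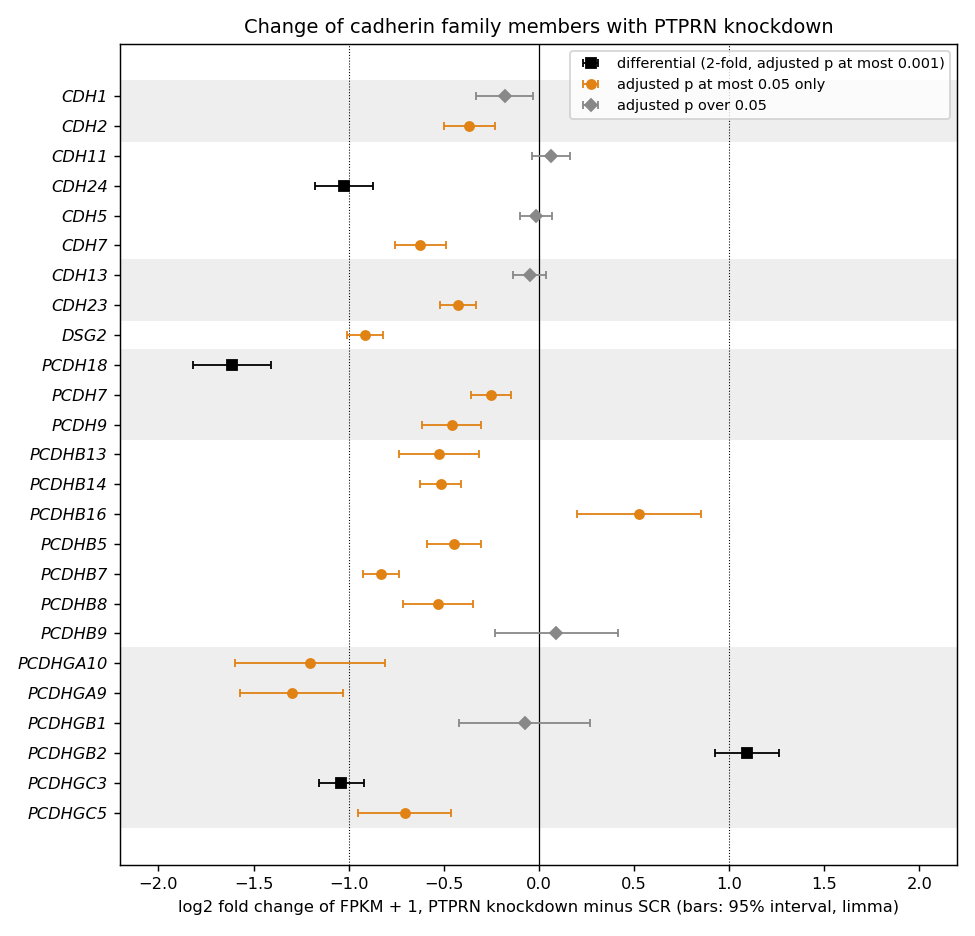
Log2 fold change of FPKM + 1, knockdown minus SCR, for the 25 members, with 95% intervals from limma (2 libraries per group). Squares are differential members, circles passed an adjusted p of 0.05 only, diamonds did not pass, and dotted lines mark a 2-fold change. Members below 1 FPKM in one group are shown only because they reached 1 in the other, so the balance of directions in the plot is partly set by that choice. PCDHGB2 and PCDHB16 lie to the right of 0 with intervals that exclude it.

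Among the type I classical cadherins, N-cadherin was the one with a high level. CDH2 (N-cadherin, chr18:27950963-28177446, minus strand) measured 13.02 and 13.73 FPKM in knockdown and 17.99 and 17.04 in SCR. Both knockdown libraries were below both SCR libraries, and CDH2 fell by 0.37 on the log2 scale (SE 0.047, limma adjusted p = 0.00551). With 1 library of either group left out, its adjusted p was 0.0526 to 0.0678. CDH1 (E-cadherin, chr16:68737290-68835542) was near the bottom of the range, at 0.20 and 0.29 FPKM in knockdown and 0.38 and 0.44 in SCR, or about 17.7 to 39.2 reads a library. The groups did not overlap, but the log2 fold change of -0.18 (95% interval -0.33 to -0.03) had an adjusted p of 0.0510 and did not pass. It passed with an eBayes trend, median-ratio scaling or the replicate number as a block (adjusted p = 0.0429, 0.0398 and 0.0336). CDH3, CDH4 and CDH15, the remaining type I members, did not pass and stayed between 0 and 0.70 FPKM.

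Type II classical cadherins lack the conserved motif of type I cadherins. CDH24 (chr14:23047061-23057538, minus strand), which binds catenins like other classical cadherins, had 3.44 and 3.67 FPKM in knockdown and 7.94 and 8.60 in SCR. All SCR values were above all knockdown values, and CDH24 was differential, with a log2 fold change of -1.02 (SE 0.054, limma adjusted p = 0.000708). CDH7, a cadherin of migrating neural crest cells, had 0.38 and 0.39 FPKM in knockdown and 1.06 and 1.21 in SCR. It fell by 0.62 on the log2 scale (SE 0.047, adjusted p = 0.00144), with no overlap between groups.

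CDH11 and CDH5, which are often used as mesenchymal and endothelial markers, were barely detected. CDH11 (osteoblast cadherin) had 0.07 and 0.03 FPKM in knockdown and 0 and 0.01 in SCR, at most 8.9 estimated reads, and did not pass (adjusted p = 0.212). CDH5 (VE-cadherin, the adherens junction cadherin of endothelium) had 0.01 and 0.03 FPKM in knockdown and 0.03 in both SCR libraries, at most 2.5 estimated reads. CDH5 was thus at the level of a few reads, while some other endothelial markers were higher. PECAM1 had 1.21 and 1.26 FPKM in knockdown and 2.39 and 2.50 in SCR. Whether the cells match the line named in the growth protocol was not tested. The other 6 type II members with a value lay between 0 and 0.33 FPKM, and none of them passed.

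The most abundant member, CDH13, did not pass the test. CDH13 (T-cadherin, chr16:82626794-83796610), which is anchored to the membrane by a lipid and has no cytoplasmic tail, had 104.70 and 106.20 FPKM in knockdown and 110.11 and 108.04 in SCR. The groups did not overlap, but the log2 fold change was -0.05 (95% interval -0.14 to 0.04) and did not pass (limma adjusted p = 0.265). Under quantile normalization it was -0.18 with an adjusted p of 0.0138. CDH23, a component of the tip links of inner ear hair cells, was low, at 0.56 and 0.57 FPKM in knockdown and 1.14 and 1.07 in SCR. It fell by 0.43 on the log2 scale (SE 0.033, adjusted p = 0.00156), and its groups did not overlap. Exons of C10orf105 overlap CDH23 on the opposite strand, and whether counting used the strand is not given in the sources used here. The same holds for annotated antisense transcripts at CDH1, CDH2, CDH13, DSG2 (DSG2-AS1), PCDH9 (PCDH9-AS1), PCDHB5, PCDHB7, PCDHB16 and PCDHGB1.

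DSG2 was the one desmosomal cadherin with an appreciable level. DSG2 (desmoglein 2, chr18:31498004-31549008), the desmoglein of simple epithelia and heart, had 7.44 and 7.21 FPKM in knockdown and 14.52 and 14.86 in SCR. Both knockdown values were below both SCR values, and DSG2 fell by 0.91 on the log2 scale (SE 0.034, limma adjusted p = 0.000412), under the 2-fold limit on this scale. The other 5 desmosomal members with a value were between 0 and 0.24 FPKM, and none passed. Genes of the desmosomal plaque differed in level. JUP, plakoglobin, had 0.02 and 0.14 FPKM in knockdown and 0.08 and 0.21 in SCR (adjusted p = 0.485), and DSP, desmoplakin, named after its values were seen, was at 0 to 0.01 in all 4. Also named after their values were seen, the plakophilin PKP3 had 0.84 and 0.83 FPKM in knockdown and 3.7 and 3.01 in SCR and fell (log2 fold change -1.24, adjusted p = 0.00129), as did periplakin, PPL, with 0.15 and 0.12 against 1.02 and 0.97 FPKM (log2 fold change -0.81, adjusted p = 0.00049). The plakophilin relative PKP4 rose, with 13.63 and 13.22 against 9.14 and 10.17 FPKM (log2 fold change 0.44, adjusted p = 0.00663). The summed epithelial markers were lower in knockdown, but single markers went both ways. Of 9 markers 8 had a value (GRHL2 had none), and their sum was 6.44 to 6.58 in knockdown and 10.87 to 12.04 in SCR. Among them 2 fell, KRT8 (1.97 and 1.99 FPKM in knockdown, 6.34 and 5.98 in SCR) and KRT18 (0.48 and 0.66 against 2.97 and 3.09). CLDN7 rose, with 2.64 and 2.45 against 1.32 and 0.83 FPKM, and 5 did not pass. KRT8, KRT18 and CLDN7 were named after their values were seen. CLDN3 was at 0 in 2 of the 4 libraries, and the part of these markers in the change of DSG2 and CDH1 was not tested.

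Of the non-clustered protocadherins, PCDH18 had the largest fall of any member on the log2(FPKM + 1) scale. PCDH18 (chr4:137518918-137532498, minus strand) is a delta-type protocadherin known to bind the adaptor DAB1. Its FPKM was 0.53 and 0.35 in knockdown and 3.39 and 3.41 in SCR, about 37.8 to 57.1 and 369.1 to 397.1 reads. The SCR libraries were nearly equal and far above both knockdown libraries. The log2 fold change was -1.61 (SE 0.072, limma adjusted p = 0.000546), and with a pseudocount of 0.1 it was -2.72.

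PCDH7 and PCDH9, further delta protocadherins of the nervous system, fell by less. PCDH7 (chr4:30720408-31146801) had 2.18 and 2.08 FPKM in knockdown and 2.67 and 2.78 in SCR, a log2 fold change of -0.25 (SE 0.036, adjusted p = 0.00758). PCDH9 (chr13:66302834-67230336, minus strand) had 1.29 and 1.34 against 2.05 and 2.32, a log2 fold change of -0.46 (SE 0.054, adjusted p = 0.00437). Neither gene's groups overlapped. Leaving out 1 library raised the adjusted p of PCDH7 to at most 0.0654 and that of PCDH9 to at most 0.0789. Below an FPKM of 1, PCDH10 fell, with 0.21 to 0.27 FPKM in knockdown and 0.42 to 0.45 in SCR (log2 fold change -0.21, adjusted p = 0.0155). PCDH17 rose, with 0.60 to 0.64 FPKM in knockdown and 0.28 to 0.35 in SCR (log2 fold change 0.30, adjusted p = 0.00681). Both were named after their values were seen, and the other 5 non-clustered members with a value below 1 did not pass.

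The clustered protocadherins lie side by side on chromosome 5 (alpha at 140786136 to 141012344, beta at 141051376 to 141248234 and gamma at 141330685 to 141512981). Reads of 50 bases cannot always be placed among them. In the GENCODE 29 transcripts, a median of 60.6% of the 50-base windows of an alpha member, 20.2% of a beta member and 47.4% of a gamma member also occur in another gene, against 0.0% in type II cadherins. Values of single cluster members are therefore uncertain where the counting could split shared reads. Among the non-clustered protocadherins the median was 0.2%, but PCDH11X (57.3%), PCDH11Y (58.5%) and PCDH20 (95.8%) had high shares, so the same limit holds for them.

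Gamma C-type genes sit at the end of the cluster and are not chosen at random in neurons as the A and B types are. PCDHGC3 (chr5:141476002-141512977), which is broadly expressed outside neurons, was the second most abundant member, at 36.75 and 34.78 FPKM in knockdown and 73.71 and 75.31 in SCR. Each knockdown library had less than any SCR library, and PCDHGC3 was differential, with a log2 fold change of -1.04 (SE 0.041, limma adjusted p = 0.000463). PCDHGC5, the last gene of the cluster, had 1.59 and 1.87 against 3.71 and 3.20 FPKM and fell by 0.71 on the log2 scale (SE 0.086, adjusted p = 0.00479). With 1 library left out, the adjusted p of PCDHGC5 was 0.0553 to 0.073. Of their 50-base windows, 45.7% in PCDHGC3 and 45.3% in PCDHGC5 were shared with other genes.

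Gamma A and B genes went both ways. PCDHGB2 (chr5:141360136-141512979), the sixth gene of 22, had 2.78 and 2.83 FPKM in knockdown and 0.87 and 0.70 in SCR. Both knockdown libraries were above both SCR libraries, and PCDHGB2 was differential, with a log2 fold change of 1.09 (SE 0.058, limma adjusted p = 0.000719). PCDHGA9 (chr5:141402953-141512979) had 0.38 and 0.36 FPKM in knockdown and 2.67 and 2.1 in SCR, a log2 fold change of -1.30 (SE 0.094, adjusted p = 0.00132). PCDHGA10 (chr5:141413176-141512979) had 0.84 and 0.49 against 3.10 and 2.55 FPKM, a log2 fold change of -1.20 (SE 0.138, adjusted p = 0.00407). PCDHGA9 and PCDHGA10 exceeded 2-fold and missed the adjusted p of 0.001, and neither had overlapping groups. Leaving out 1 library raised the adjusted p of PCDHGA9 to 0.0505 in the absence of knockdown replicate 2, and that of PCDHGA10 to 0.0531 without knockdown replicate 2, 0.0848 without SCR replicate 1 and 0.0688 without SCR replicate 2.

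PCDHGB1, 2 places before PCDHGB2 in the cluster, had 1.5 and 1.01 FPKM in knockdown and 1.40 and 1.32 in SCR. The groups overlapped, and the log2 fold change of -0.07 (95% interval -0.42 to 0.27) did not pass (limma adjusted p = 0.648). PCDHGB7, which lies next to PCDHGA10 and was named after its values were seen, had 0.04 and 0.03 FPKM in knockdown and 0.57 and 0.50 in SCR, about 2.6 to 3.5 and 43.4 to 53.5 reads, and fell (log2 fold change -0.57, adjusted p = 0.00108). PCDHGA9, PCDHGA10 and PCDHGB7 thus all fell, while PCDHGB6 between PCDHGA9 and PCDHGA10 was at 0.06 FPKM or less in group means and did not pass. Of the 50-base windows, 47.5% in PCDHGA9, 52.8% in PCDHGA10, 50.5% in PCDHGB7 and 53.2% in PCDHGB2 were shared with other genes. The values of these genes may therefore not be independent of each other or of PCDHGC3. PCDHGA2 fell and PCDHGA7 rose at FPKM of 0.61 or less, and the other 12 unnamed gamma members with a value did not pass. Without PCDHGC3, the gamma sum was 8.26 and 8.39 FPKM in knockdown and 14.04 and 12.02 in SCR.

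**Figure D4:**
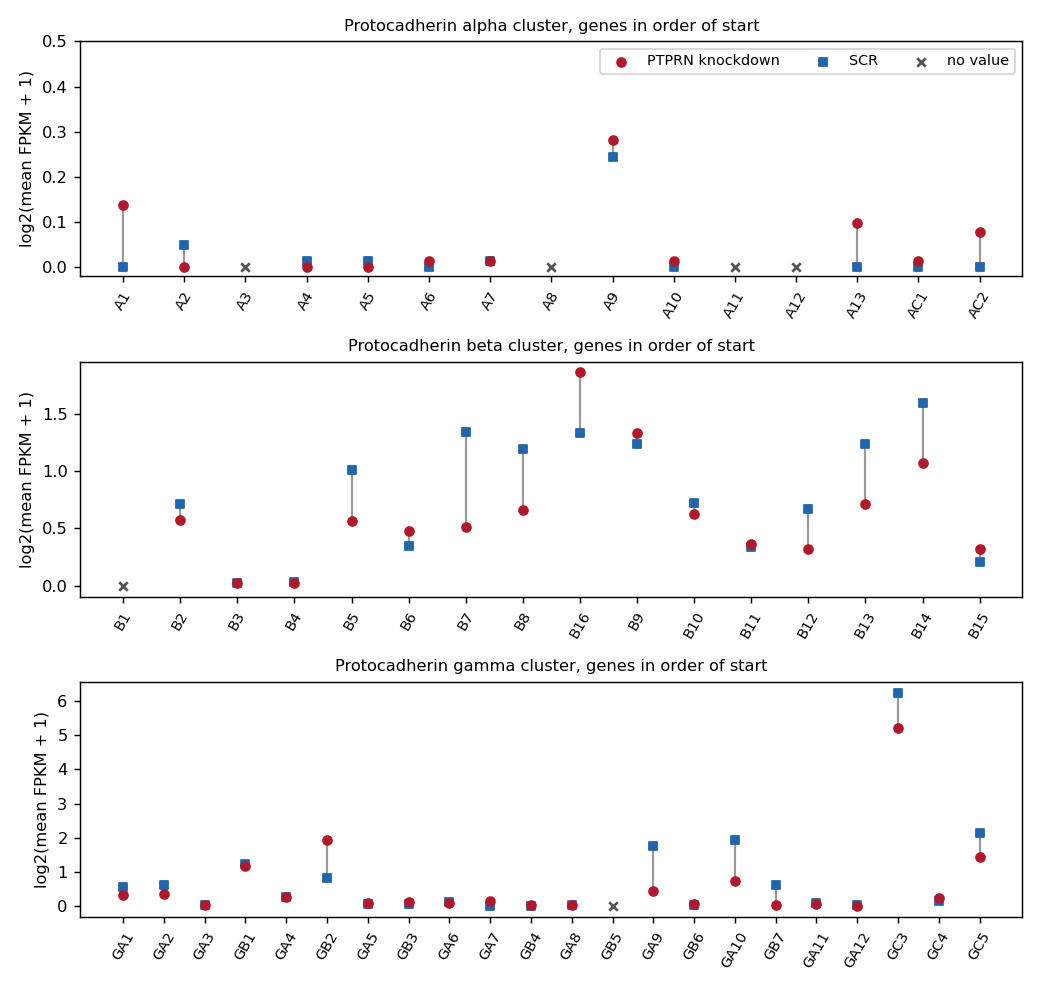
Mean level, as log2(mean FPKM + 1) of 2 libraries per group, of each gene of the alpha, beta and gamma clusters in order of start (PCDH left off the names, crosses for no value, y scales differ). Circles are knockdown and squares SCR. PCDHGB2 and PCDHB16 lie higher in knockdown. PCDHB9, next to PCDHB16, lies slightly higher as well (log2 fold change 0.09, not passed), and PCDHGA7, further along from PCDHGB2, rose at a low level (0.15).

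Beta genes, whose proteins have no shared constant part, were low throughout. Of the 15 with a value, 6 fell, 1 rose and 8 did not pass, where 27.1% of all genes tested fell and 30.8% rose. Of the 3 that averaged 1 FPKM or more over all 4 libraries, 1 fell (PCDHB14), 1 rose (PCDHB16) and 1 did not pass (PCDHB9). In that range 33.5% of all genes fell and 41.1% rose. PCDHB7 (chr5:141172621-141176376) had 0.45 and 0.40 FPKM in knockdown and 1.54 and 1.53 in SCR. Its groups did not overlap, and it had the largest fall of the cluster, with a log2 fold change of -0.83 (SE 0.034, limma adjusted p = 0.00047). PCDHB14, the most abundant beta gene in SCR, had 1.07 and 1.14 against 1.96 and 2.06 FPKM, a log2 fold change of -0.52 (SE 0.037, adjusted p = 0.00133).

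PCDHB5, PCDHB8 and PCDHB13 were similar in size of change. PCDHB5 had 0.53 and 0.43 FPKM in knockdown and 0.98 and 1.05 in SCR (log2 fold change -0.45, adjusted p = 0.00364). PCDHB8 had 0.50 and 0.66 against 1.23 and 1.33 (-0.53, adjusted p = 0.0048), and PCDHB13 had 0.74 and 0.53 against 1.35 in both SCR libraries (-0.53, adjusted p = 0.00698). None of the 3 had overlapping groups, and none of them passed 0.05 when either SCR library was left out, with adjusted p up to 0.0703, 0.0907 and 0.114. Of the 50-base windows of PCDHB8, 49.3% are shared, the highest share in the beta cluster.

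PCDHB16 (chr5:141181690-141186221), which sits between PCDHB8 and PCDHB9, went the other way. It had 2.38 and 2.87 FPKM in knockdown and 1.72 and 1.32 in SCR, with no overlap between groups. It rose by a log2 fold change of 0.53 (SE 0.114, limma adjusted p = 0.0233). The adjusted p was 0.0655 with the replicate number as a block and 0.0957 to 0.175 with 1 library left out. PCDHB9 had 1.77 and 1.27 against 1.42 and 1.29 FPKM, with overlapping groups, and its log2 fold change of 0.09 (95% interval -0.23 to 0.41) did not pass. PCDHB16 and PCDHB9 share exons with annotated transcripts of the same strand, and so do PCDHB8 and PCDHB14, which fell. Of the 50-base windows, 28.6% in PCDHB16 and 28.9% in PCDHB9 are shared. Of the 8 beta genes below 1 FPKM, PCDHB12 fell and 7 did not pass.

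The alpha cluster was close to silent. Its 11 members with a value lay between 0 and 0.23 FPKM, with PCDHA9 highest at 0.21 and 0.22 in knockdown and 0.14 and 0.23 in SCR. PCDHA1 and PCDHA13 rose from 0 in both SCR libraries to 0.08 and 0.12, and to 0.07 in both knockdown libraries (limma adjusted p = 0.033 and 0.0486), and were named after their values were seen. A listed 0 for PCDHA1 allows up to 0.0304 FPKM at 3 reads in SCR replicate 2 and 0.0281 in SCR replicate 1, counting error only, and its knockdown values correspond to about 7.9 and 11.8 reads. No fold is given against libraries at 0.

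Low values limit many members. Of the 83 with a value, 30 had fewer than 10 estimated reads in every library, and in 15 the value was 0 in both libraries of 1 group, 9 of them in SCR and 6 in knockdown. The 58 members with a value that are not described by name under the FPKM rule lay between 0 and 0.80 FPKM, and 4 of them rose and 4 fell.

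Genes that work with cadherins did not share one direction. Of 20 catenins and plaque partners, 8 rose, 5 fell and 7 did not pass, with a median log2 fold change of 0.01. The alpha-catenin CTNNA1 had 179.04 and 177.63 FPKM in knockdown and 133.07 and 135.62 in SCR and rose by 0.41 on the log2 scale (SE 0.030, limma adjusted p = 0.00138). Beta-catenin (CTNNB1), which also acts in Wnt signalling, had 142.7 and 143.74 against 128.22 and 131.81 FPKM and rose by 0.14 (adjusted p = 0.0268). CTNND1, p120-catenin, which holds cadherins at the membrane, had 39.17 and 39.86 against 42.95 and 43.3 FPKM and fell by 0.12 (adjusted p = 0.0308). All 3 catenins had groups that did not overlap and changes smaller than those of CDH24, DSG2 and PCDHGC3.

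Of 18 other members of the cadherin superfamily, 9 fell and 9 did not pass, and their median log2 fold change was -0.12. CELSR1, a planar polarity cadherin, had 0.89 and 0.76 FPKM in knockdown and 3.50 and 3.55 in SCR and was differential, with a log2 fold change of -1.31 (SE 0.047, limma adjusted p = 0.00041). FAT1, a giant atypical cadherin, had 7.53 and 7.94 against 16.6 and 17.73 FPKM and was differential as well (log2 fold change -1.06, SE 0.050, adjusted p = 0.000591). For neither gene did the groups overlap.

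Genes for the shedding and processing of cadherins, which are proteases and subunits of gamma-secretase, were mostly lower, with 7 of 12 that fell and 2 that rose (median -0.32). NCSTN, nicastrin of the gamma-secretase complex, had 19.75 and 18.74 FPKM in knockdown and 42.15 and 41.9 in SCR and was differential, with a log2 fold change of -1.09 (SE 0.039, limma adjusted p = 4e-04). Effectors of protocadherins, the WAVE complex and kinases, were mostly higher, with 10 of 14 that rose and 3 that fell (median 0.25). WASF3, a WAVE subunit, had 5.16 and 5.20 FPKM in knockdown and 1.92 and 1.69 in SCR and was differential, with a log2 fold change of 1.14. Of 16 factors known to act at the protocadherin clusters, such as CTCF and cohesin subunits, 8 rose and 2 fell (median 0.24). CTCF was among those that fell, with 15.91 and 15.68 FPKM in knockdown and 18.41 and 19.09 in SCR (log2 fold change -0.23, adjusted p = 0.00784), and was named after its values were seen. For these lists too, 30.8% of all genes rose and 27.1% fell at this threshold. Most genes of the shedding, effector and cluster factor lists averaged 1 FPKM or more over all 4 libraries. Among all genes in that range, 41.1% rose and 33.5% fell.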

How the data were processed

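RNA of 4 U87 libraries was sequenced single-end with 50-base reads on a BGISEQ-500. The authors deposited FPKM values per gene and library, rounded to 2 decimals, in 2 tables in which none of the 66380 values compared differed, and no read counts were used here. The submitters' processing notes name HISAT2 2.1.0 and hg19, but 96.9% of the gene positions matched by ID overlap those of RefSeq on GRCh38.p14, so coordinates of genes are given as GRCh38. The counting program is not given in the sources used here. The deposited tables also hold the authors' comparisons between libraries (log2 fold changes, p-values and q-values), which were not used.

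The genes not at 0 in every library were tested on log2(FPKM + 1) with limma 3.58.1 (R 4.3.3, default lmFit and eBayes, 3.72 degrees of freedom, of which 1.72 were shared across genes). Group was the single term of the model. The procedure was tested on simulated data. Described by name with values in every library were members that averaged 1 FPKM or more in either group, plus CDH1, CDH2, CDH5 and CDH11, 25 in all, and from each partner list at most 4 differential genes, plus CTNNA1, CTNNB1, CTNND1 and JUP. The members and lists were chosen with earlier results of these data known. Depth was estimated from the FPKM steps of short single-transcript genes. Of those at up to 4 steps, 86.2 to 94.0% lay within 0.2 of a whole step, and depth and floors cover counting error only. Alternatives were 0.1 as pseudocount, an FPKM minimum of 1 in 2 libraries, quantile and median-ratio scaling, an eBayes trend, a replicate block and leaving out each library.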

Additional observations from a re-analysis of the deposited data

How the results depend on the processing

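Of the values under other settings (limma throughout), 235 kept their direction and their side of the threshold, 28 no longer passed, 4 newly passed and 4 changed sign. The differential members (1 higher, 3 lower) were 0 and 0 with a pseudocount of 0.1, with the replicate block and with any 1 library left out (0 to 0 in both directions), and in each of these settings 0 of all genes tested were differential, while 36, 28 and 25 to 31 members had an unadjusted p under 0.05, against 33 in the fit reported. With a pseudocount of 0.1 and an eBayes trend, added after seeing the data, 0 members were higher and 3 lower, and with a minimum FPKM of 1 in 2 libraries 5 were lower. At an adjusted p of 0.05, the 6 members that rose became 10 with a pseudocount of 0.1, 2 with the minimum FPKM and 2 with the replicate block. With 1 library left out they were 1 to 4 (1 without knockdown replicate 2, 3 without SCR replicate 1 and 2 without SCR replicate 2). The 21 that fell were 21 with the block and 12 to 17 with 1 library left out (12 without either SCR replicate). The cause of these shifts was not tested. Leaving out 1 library gave log2 fold changes of -0.03 to 0.00 for CDH5, -0.05 to 0.23 for PCDHB9 and -0.23 to 0.08 for PCDHGB1, with the value at 0 or of the other sign without knockdown replicate 1 for CDH5 and PCDHB9 and without knockdown replicate 2 for PCDHGB1, which was also 0.04 under quantile normalization. Same-numbered libraries deviated with a correlation of 0.067 across genes, which gives no sign of a pairing by replicate number but cannot exclude one. With 2 libraries per group and about 18300000 to 19900000 reads, members below about 1 FPKM are measured poorly, and a library left out leaves 1 library that is assumed to vary like the other group.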
